A study of Mus musculus with 14 samples.

Results

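The CDC-like kinases Clk1, Clk2, Clk3 and Clk4 and 6 further genes, Ccnl2, Pnisr, Luc7l, Srrm1, Leng8 and Ogt, were followed in heart RNA-Seq of WT mice. They are 10 of the 56748 genes in the deposited tables and were taken by symbol. Most were chosen by their FPKM values, as higher in WT_B than in WT_A, so that difference is described here and not tested. All 10 stood above the filter of 0.5 FPKM in all 14 libraries. The study examined NAD+ precursors in a mouse model of cardiac disease, and its libraries from mice other than WT were not used here. The 14 libraries used were each made from the heart of 1 C57BL6J WT mouse without treatment of the drinking water. All these mice had received doxycycline chow (200 ppm) from 12 to 16 weeks of age. WT_A held 4 pilot males after 20 weeks of doxycycline, WT_F held 5 pilot females after 26 weeks, and WT_B held 5 males after 16 weeks, which were assigned to the second cohort by elimination. The labels name neither sex nor cohort in words and give 16 to 20 weeks for all mice. Between WT_B and WT_A, both male, cohort and weeks of doxycycline cannot be told apart. Between WT_F and WT_A, both of the pilot cohort, sex and weeks cannot be told apart, and between WT_B and WT_F all these differ together.

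CLK kinases are nuclear enzymes that phosphorylate the arginine- and serine-rich (RS) tails of SR proteins, the factors that select exons, and so release them from nuclear speckles. Clk1 and Clk4 are the closest pair of the family, and many of their transcripts keep introns and stay in the nucleus, from which they can be spliced later when kinase activity is low. Retained introns of this kind have also been described for Ogt, which encodes the only O-GlcNAc transferase of nucleus and cytosol, and for other genes of RS-rich splicing proteins. The values used here are FPKM, fragments scaled by the exon length of the gene and the depth of the library and counted over all its exons, so spliced and intron-retaining forms were not measured separately. Being bulk tissue values, they also cannot tell fewer cells of a type from less RNA per cell.

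In the GENCODE M21 annotation, transcripts of the class retained intron made up 7 of 13 for Clk1 and 7 of 14 for Clk4. Among 11316 expressed protein-coding genes, 2.48% had 7 or more such transcripts and 22.1% had 3 or more. The count was 6 of 15 for Srrm1, 4 of 11 for Clk2, 4 of 9 for Clk3, 3 of 5 for Ccnl2, 3 of 10 for Leng8, 3 of 7 for Ogt and 2 of 9 for Luc7l, whereas Pnisr had 0 of 13. In each of the 4 kinase genes intron 3 and intron 4 are each kept by an annotated transcript, not necessarily the same one. These introns flank exon 4, the exon whose skipping removes the catalytic domain from the Clk1 protein. The splice sites of these introns are shown because the intron 3 donors divide the 4 genes into the same pairs as the levels given further on. A link between donors and levels was not tested. They were read from GRCm38 with the annotation of that build, 5′ to 3′ on the gene's strand, and the capitals mark the first 6 bases of the intron.
Clk1 intron 3 donor, chromosome 1: gggGTATGA
Clk4 intron 3 donor, chromosome 11: tcgGTATGA
Clk2 intron 3 donor, chromosome 3: tcaGTGAGT
Clk3 intron 3 donor, chromosome 9: tcgGTGAGT
Clk1 intron 4 donor: gatGTATAG
Clk4 intron 4 donor: gatGTATAG
Clk3 intron 4 donor: gatGTACAG
Clk2 intron 4 donor: gatGTACAA

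Clk1 and Clk4 shared the donor GTATGA at intron 3, which was found at 0.769% of 6760 introns that lie in annotated retained-intron transcripts of 3023 genes. Clk2 and Clk3 had GTGAGT there, found at 14.5% of those introns. Among the further genes, Srrm1 also had GTATGA at its intron 3, and Ccnl2 had GTGAGT at its intron 5. In both genes every WT_B library was above every WT_A library, so Ccnl2 did not follow the division of the kinases. Srrm1 did not pass the test of the mitochondrial percent given further on, unlike Clk1 and Clk4. At intron 4, Clk1 and Clk4 shared GTATAG (0.192%), Clk3 had GTACAG (0.799%) and Clk2 had GTACAA (0.237%). The lengths of introns 3 and 4 were 871 and 387 bases in Clk1, 1055 and 391 bases in Clk4, 2100 and 276 bases in Clk3, and 691 and 346 bases in Clk2. The acceptors of intron 4 follow, with the first 3 bases of exon 5 in capitals.
Clk1 intron 4 acceptor: taattattcctcttttttagATG
Clk4 intron 4 acceptor: ctttctctcccttactttagATG
Clk3 intron 4 acceptor: cagcttcttctttctcacagATG
Clk2 intron 4 acceptor: cctactttctttcgtttcagATG

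The 250 bases before the RefSeq start of Clk4 and of Clk2 are shown. Clk1 had no entry among the promoter windows used, so its promoter was not searched. Each motif was searched on both strands, matches stand in capitals, and the shares are of 32851 promoter windows of the same length.
Clk4, GRCm38.p6 chr11:51262864-51263113, + strand: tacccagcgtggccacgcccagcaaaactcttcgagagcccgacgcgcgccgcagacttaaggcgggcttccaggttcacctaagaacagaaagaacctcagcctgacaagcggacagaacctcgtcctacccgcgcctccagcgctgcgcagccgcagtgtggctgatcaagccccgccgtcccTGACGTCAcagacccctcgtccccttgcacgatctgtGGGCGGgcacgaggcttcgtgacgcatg
Clk2, GRCm38.p6 chr3:89164545-89164794, + strand: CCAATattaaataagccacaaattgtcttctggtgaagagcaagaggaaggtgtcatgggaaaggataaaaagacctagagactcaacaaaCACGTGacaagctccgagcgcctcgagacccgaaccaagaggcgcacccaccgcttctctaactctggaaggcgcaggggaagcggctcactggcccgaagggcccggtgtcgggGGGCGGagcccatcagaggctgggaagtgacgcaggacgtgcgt

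The Clk4 window held the palindromic cAMP response element TGACGTCA, found in 1.55% of windows, and 1 GC box GGGCGG, found in 32.7%. The Clk2 window held 1 E-box CACGTG (6.02%), 1 CCAAT box (33.8%) and 1 GC box. The Clk3 window, not shown, held 2 GC boxes and neither an E-box, a CCAAT box nor a cAMP response element. These are matches of letters and not measured binding.

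The libraries held 16810000 to 31970000 fragments, which gave 151 to 1791 fragments for Clk1, 286 to 803 for Clk4, 284 to 584 for Clk2 and 561 to 1062 for Clk3 per library. The 37 genes of the mitochondrial genome took 33.8% to 52.0% of the summed FPKM in WT_B (n = 5), 1.93% to 6.63% in 3 WT_A libraries and 2.42% to 17.2% in 4 WT_F libraries, but 51.0% in mouse 22 of WT_A and 49.99% in mouse 28 of WT_F. The library of mouse 24 of WT_A stood apart in another way, since its 5 atrial markers summed to 12913 FPKM against 22.4 to 141 in the other 13 libraries, and its ventricular markers were the lowest at 11152. Results are therefore given with and without mice 22 and 28 and, where they change, without mouse 24 too. Counts over gene lists and marker lists are the exception and were not made without mouse 24. The adipocyte list (Adipoq, Plin1, Cfd, Lep) summed to at most 3.60 FPKM in any library.

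Clk1, the family member best known for controlling its own splicing, had the widest spread of the 4 kinases. In WT_A it stood at 4.28, 1.27, 1.37 and 0.930 FPKM in mice 22, 23, 24 and 26. In WT_F it stood at 5.46, 2.90, 2.86, 3.10 and 1.99 FPKM in mice 28 to 32. The WT_B values were 7.48, 7.54, 8.21, 9.33 and 5.11 FPKM in mice 4, 5, 7, 8 and 9. Mice 22 and 28 were the highest of their groups, mouse 9 was the lowest of WT_B, and WT_B did not overlap with WT_A. The means were 1.96 ± 1.56 (SD, n = 4) in WT_A, 3.26 ± 1.30 (n = 5) in WT_F and 7.53 ± 1.55 (n = 5) in WT_B, a ratio of 3.84 for WT_B over WT_A. Its SD of log2(FPKM + 1) within groups was 0.451, larger than that of 91.6% of 13180 genes tested, whose median SD was 0.20.

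Clk4, the close relative of Clk1, stood at 3.71, 1.89, 2.50 and 2.47 FPKM in the WT_A mice. The WT_F values were 4.21, 3.02, 3.13, 3.69 and 2.52 FPKM. In WT_B it reached 5.74, 5.76, 5.06, 5.87 and 4.96 FPKM. Mice 22 and 28 were again the highest of their groups, mouse 9 the lowest of WT_B, and WT_B lay above every library of both other groups. The ratio of means was 2.07 for WT_B over WT_A and 1.65 for WT_B over WT_F. BC049762 on the opposite strand and Gm25082 on the same strand overlap Clk4, at mean levels of up to 0.225 FPKM, and the labels do not say whether these libraries kept the strand.

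Clk2, a ubiquitously expressed CLK kinase, did not separate the groups. It stood at 2.83, 3.83, 2.43 and 3.06 FPKM in WT_A, at 2.63, 3.69, 2.99, 4.33 and 3.68 in WT_F, and at 3.16, 3.19, 3.28, 3.66 and 3.63 in WT_B. Mouse 28 was the lowest of WT_F, and the 3 ranges overlapped. Clk3, which is abundant in testis and present at lower levels elsewhere, stood at 3.39, 3.85, 3.84 and 4.31 FPKM in WT_A, at 3.88, 4.62, 3.98, 5.06 and 4.17 in WT_F, and at 4.48, 3.95, 4.00, 4.37 and 4.90 in WT_B. For Clk3 mice 22 and 28 were the lowest of their groups, and here too all ranges overlapped. The WT_B over WT_A ratios of means were 1.11 for Clk2 and 1.13 for Clk3. Edc3, at a mean of 1.69 FPKM, overlaps Clk3 on the opposite strand.

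**Figure D1:**
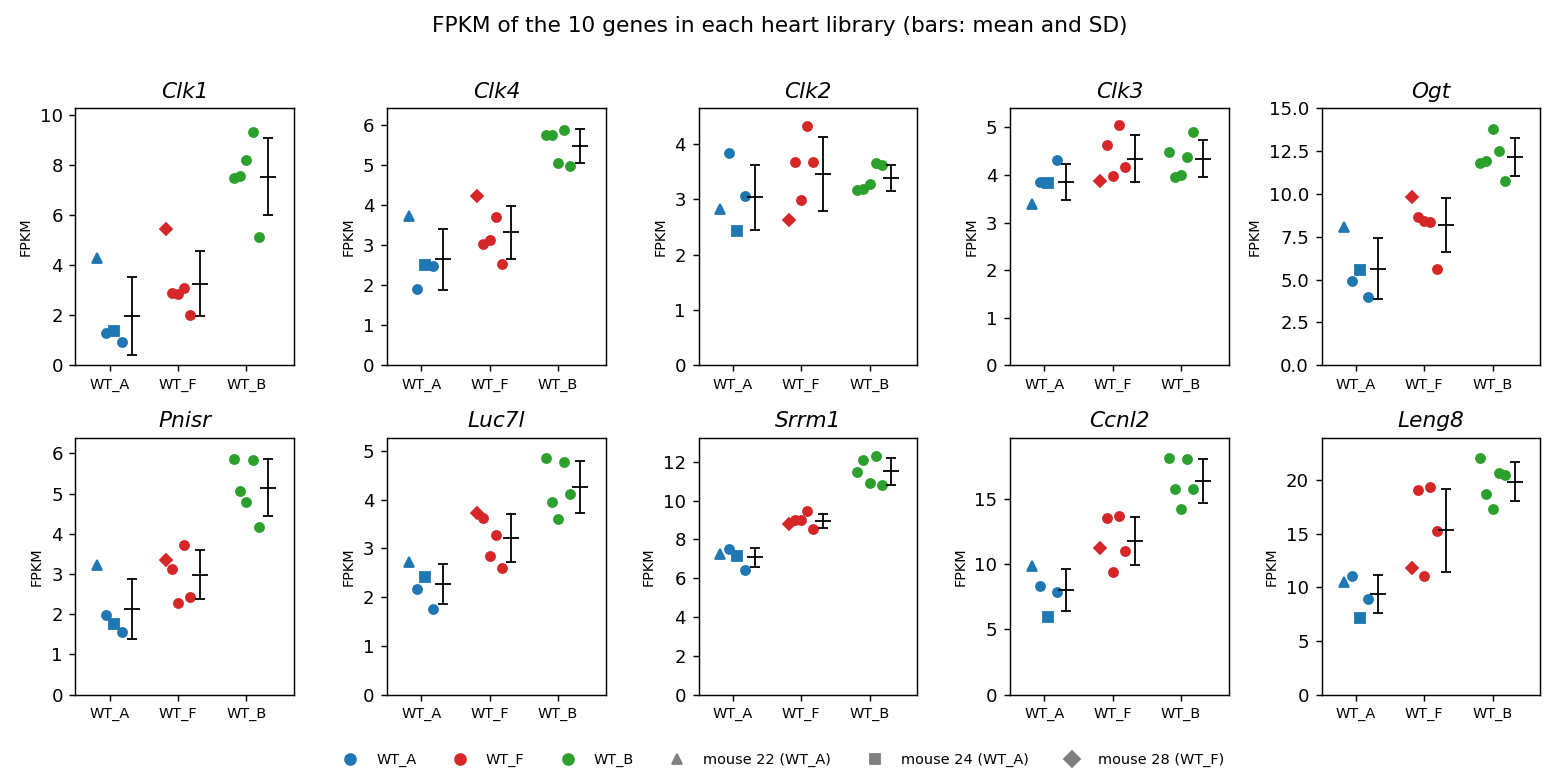
FPKM (linear axes from 0) of each of the 10 genes in the 4 WT_A, 5 WT_F and 5 WT_B heart libraries, 1 point per mouse, with the group mean and SD as bars and mice 22, 24 and 28 in their own symbols. Clk1, Clk4 and Ogt are highest in mouse 22 within WT_A and in mouse 28 within WT_F, Srrm1 lies in 3 separate bands, and Clk2 and Clk3 overlap in all groups.

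Among the RS-rich proteins and their partners, Srrm1, a splicing coactivator, varied least within groups. It stood at 7.27, 7.50, 7.14 and 6.40 FPKM in WT_A, at 8.77, 9.01, 9.02, 9.48 and 8.52 in WT_F, and at 11.5, 12.1, 10.9, 12.3 and 10.8 in WT_B. No library of one group fell within the range of another, and mice 22 and 28 stood among the other mice of their own groups. The group means were 7.08 ± 0.475 (SD, n = 4), 8.96 ± 0.357 (n = 5) and 11.5 ± 0.686 (n = 5), and only 0.766% of genes had a smaller SD within groups than the 0.0727 of Srrm1 on the log2(FPKM + 1) scale.

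Ccnl2 encodes cyclin L2, a speckle protein that pairs with CDK11 kinases. Its values were 9.84, 8.31, 5.97 and 7.83 FPKM in WT_A, 11.2, 13.5, 9.40, 13.7 and 11.01 in WT_F, and 18.1, 15.7, 14.2, 18.05 and 15.7 in WT_B. WT_B lay above every library of WT_A and WT_F, while 1 WT_A library, that of mouse 22, reached into the WT_F range. Leng8, a nuclear protein with a domain shared with mRNA export factors, stood at 10.5, 11.1, 7.17 and 8.87 FPKM in WT_A, at 11.8, 19.0, 11.1, 19.4 and 15.3 in WT_F, and at 22.04, 18.7, 17.3, 20.6 and 20.5 in WT_B. Every WT_F and WT_B library was above every WT_A library for Leng8, mouse 24 was the lowest, and WT_F spread from the level of WT_A to that of WT_B. Leng9, at a mean of 1.09 FPKM, overlaps Leng8 on the opposite strand.

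Pnisr encodes an RS protein that binds pinin. It stood at 3.23, 1.98, 1.77 and 1.57 FPKM in WT_A, at 3.34, 3.12, 2.29, 3.72 and 2.44 in WT_F, and at 5.85, 5.08, 4.79, 5.83 and 4.18 in WT_B. Luc7l, a relative of a yeast protein of the U1 snRNP, stood at 2.73, 2.16, 2.42 and 1.76 FPKM in WT_A, at 3.72, 3.62, 2.86, 3.28 and 2.59 in WT_F, and at 4.86, 3.95, 3.61, 4.78 and 4.12 in WT_B. In both genes WT_B was above all of WT_A, mouse 22 was the highest of WT_A, and WT_F overlapped with WT_A. AC126438.2 and Gm16580, at means of up to 0.199 FPKM, overlap Luc7l.

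Ogt, whose enzyme adds O-GlcNAc to nuclear and cytosolic proteins, stood at 8.09, 4.94, 5.59 and 3.97 FPKM in WT_A. The WT_F values were 9.86, 8.69, 8.41, 8.39 and 5.63 FPKM, and the WT_B values 11.8, 11.96, 13.8, 12.5 and 10.8. The order of the mice was like that of Clk1 and Clk4, with mouse 22 the highest of WT_A, mouse 28 the highest of WT_F and mouse 9 the lowest of WT_B. WT_B lay above all other libraries, with a ratio of 2.16 over WT_A and 1.49 over WT_F.

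Counted over the 10 genes, 8 had all WT_B libraries above all WT_A libraries, the exceptions being Clk2 and Clk3. This was so for 2.84% of 12745 genes tested, and since the genes were picked in this contrast nothing is read from the count. All WT_B libraries were above all WT_F libraries in 5 genes (Clk4, Ccnl2, Pnisr, Srrm1 and Ogt), against 1.62% of 12894 genes. All WT_F libraries were above all WT_A libraries in 2 (Srrm1 and Leng8), against 0.817% of 12483 genes. The 3 comparisons share libraries with each other and with the choice of the genes. The median difference of the 10 genes in mean log2(FPKM + 1) was 0.91 for WT_B minus WT_A, beside −0.04 over all genes tested, 0.42 for WT_B minus WT_F, beside −0.03, and 0.36 for WT_F minus WT_A, beside 0.00.

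Between the pilot males and females the 10 genes were compared as values only, because the WT_A libraries had a part in choosing them. On the log2(FPKM + 1) scale the differences of WT_F minus WT_A, with the SE of the limma fit, were 0.63 ± 0.19 for Leng8, 0.51 ± 0.15 for Ccnl2 and 0.30 ± 0.084 for Srrm1. Ogt differed by 0.48 ± 0.19, Luc7l by 0.37 ± 0.12, Pnisr by 0.36 ± 0.17 and Clk1 by 0.60 ± 0.30. The smallest differences were those of Clk4 (0.25 ± 0.16), Clk2 (0.14 ± 0.14) and Clk3 (0.14 ± 0.10). All 10 differences were above 0, as were those of 49.5% of the 12483 genes tested. Without mice 22 and 28 the median of the 10 differences was 0.43, beside 0.36 with both mice.

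Levels per length were ordered in WT_F, the only group that did not enter the choice. Leng8 was the highest at 15.3 ± 3.89 FPKM (SD, n = 5), followed by Ccnl2 at 11.8 ± 1.82, Srrm1 at 8.96 ± 0.357 and Ogt at 8.19 ± 1.55. The kinases came next, with Clk3 at 4.34 ± 0.494, Clk2 at 3.46 ± 0.666, Clk4 at 3.31 ± 0.652 and Clk1 at 3.26 ± 1.30, and then Luc7l at 3.21 ± 0.485 and Pnisr at 2.98 ± 0.604. Only the step from Ogt to Clk3 separated neighbours whose ranges did not overlap. Ccnl2 and Srrm1 differed by more than the sum of their SDs although their ranges met, and no other neighbours differed beyond their spread.

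The relation to the mitochondrial percent was tested within groups, where the difference between WT_B and WT_A that chose the genes is removed. In a limma fit with the group and log2 of the percent over 14 libraries, 3 of the 10 genes rose with the percent at an adjusted p of 0.05, against 14.9% of 13180 genes that rose and 24.8% that changed in either direction. Clk1 rose by 0.27 ± 0.039 (SE) on the log2(FPKM + 1) scale for each doubling of the percent (limma adjusted p = 0.000317). Ogt rose by 0.15 ± 0.026 (limma adjusted p = 0.00104) and Clk4 by 0.12 ± 0.023 (limma adjusted p = 0.0025). The slope of Clk1 was above that of 96.9% of all genes, that of Ogt above 90.9% and that of Clk4 above 87.7%.

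The other 7 genes did not pass the test. Pnisr had a slope of 0.10 ± 0.037 (limma adjusted p = 0.078) and Luc7l of 0.07 ± 0.028 (limma adjusted p = 0.0782). Srrm1 and Ccnl2, which lay higher in WT_B, had slopes of 0.01 ± 0.020 and 0.02 ± 0.040, and Leng8 had −0.05 ± 0.048, with limma adjusted p from 0.496 to 0.778. Clk2 at −0.07 ± 0.029 (limma adjusted p = 0.0871) and Clk3 at −0.04 ± 0.023 (limma adjusted p = 0.182) had slopes below 0. With FPKM rescaled to genes outside the mitochondrial genome, Pnisr (0.12, limma adjusted p = 0.0373) and Luc7l (0.10, limma adjusted p = 0.0369) passed as well, and Clk2 and Clk3 stayed below 0 at −0.05 and −0.01.

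These calls rested on mice 22 and 28. Without both the slopes were 0.16 ± 0.076 for Clk1, 0.18 ± 0.055 for Ogt and 0.10 ± 0.051 for Clk4, the limma adjusted p-values were 0.213, 0.0927 and 0.239, and none of the 10 genes passed. Ogt alone of the 10 had an unadjusted p under 0.05 there, as did 24.2% of all genes. Ccnl2 changed sign to −0.09 there, and 3.05% of all genes were called. With only mouse 22 or only mouse 28 left out, Clk1, Clk4 and Ogt passed. The slope of Clk1 over the alternatives tried ranged in adjusted p from 1.84e-06 to 0.457.

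**Figure D2:**
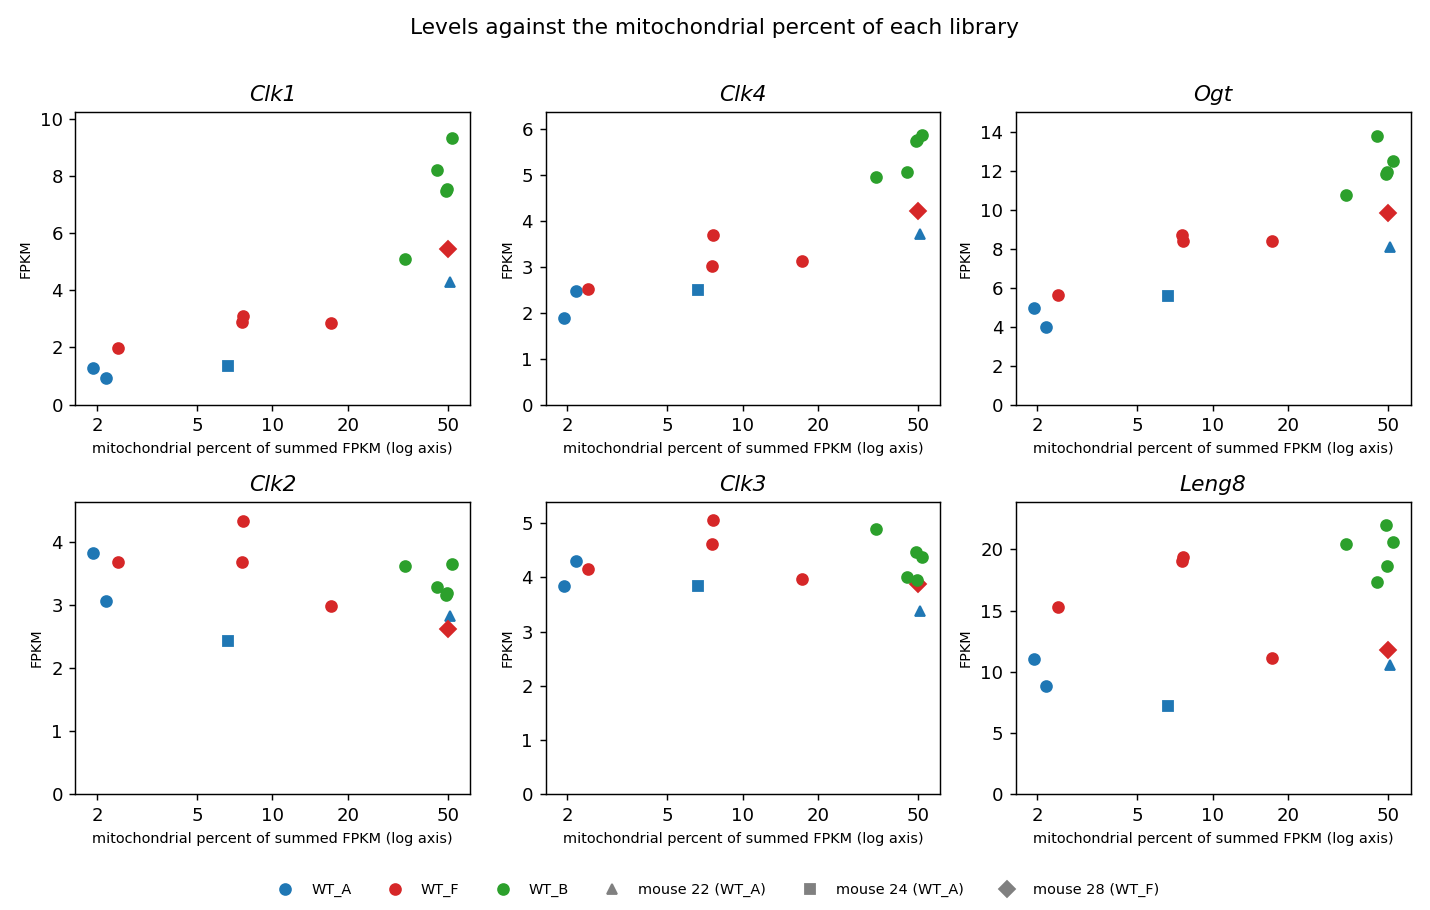
FPKM (linear axes from 0) of Clk1, Clk4, Ogt, Clk2, Clk3 and Leng8 against the percent of summed FPKM in mitochondrially encoded genes (log axis), 1 point per library, coloured by group. Clk1, Clk4 and Ogt are highest in mouse 22 within WT_A and in mouse 28 within WT_F, the libraries of highest percent in those groups. Clk1 runs from 0.930 FPKM in WT_A to 9.33 FPKM in WT_B, a difference that had a part in choosing the genes. Clk2 and Clk3 stay between 2.43 and 5.06 FPKM.

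**Figure D3:**
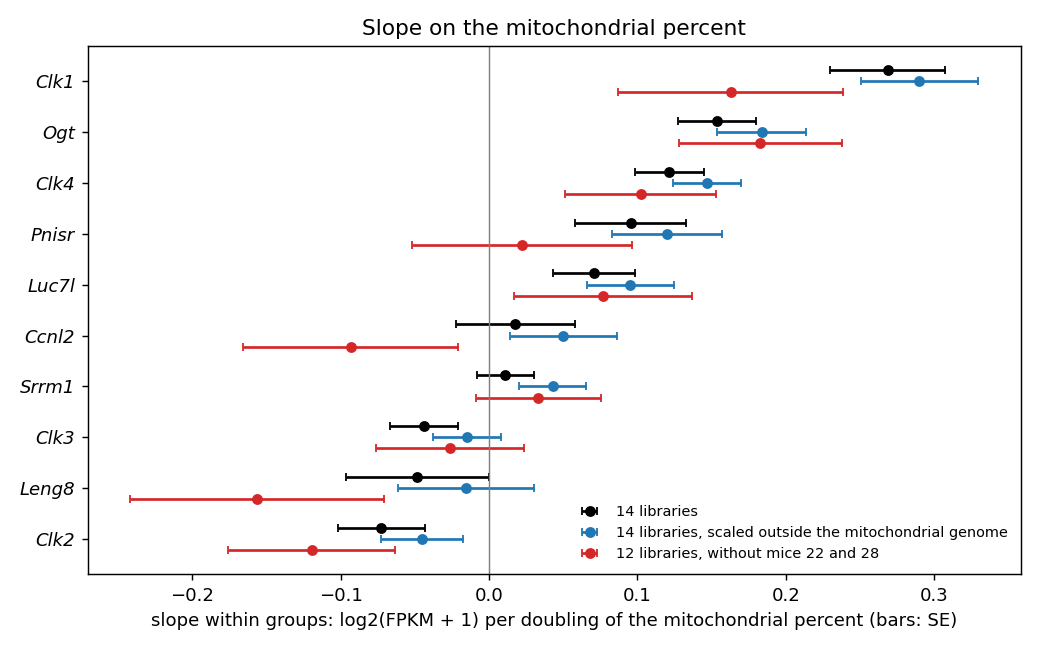
Slope of each gene within groups, as the change in log2(FPKM + 1) per doubling of the mitochondrial percent with its SE, for all 14 libraries, for 14 libraries scaled to genes outside the mitochondrial genome, and for 12 libraries without mice 22 and 28. Clk1, Ogt and Clk4 have the highest slopes in all 3 fits, and the bars widen when mice 22 and 28 are left out.

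Ratios between kinases of the same library do not depend on how the library is scaled. They were chosen after the slopes of Clk1 and Clk4 had been seen above 0 and those of Clk2 and Clk3 below 0, so they are given as values with no test. The ratio of Clk1 to Clk2 was 1.51, 0.333, 0.561 and 0.304 in WT_A, 2.08, 0.786, 0.958, 0.716 and 0.540 in WT_F, and 2.36, 2.37, 2.50, 2.55 and 1.41 in WT_B. Clk1 was thus above Clk2 in the 7 libraries with 33.8% or more of mitochondrial FPKM, mice 22 and 28 among them, and below Clk2 in the other 7. Those 7 include all of WT_B, whose values had a part in choosing the genes, and only mice 22 and 28 come from other groups. The ratio of Clk4 to Clk3 was 1.10, 0.492, 0.651 and 0.573 in WT_A, 1.09, 0.654, 0.786, 0.729 and 0.604 in WT_F, and 1.28, 1.46, 1.27, 1.34 and 1.01 in WT_B. It was above 1 in the same 7 libraries and in no other, as was the ratio of Clk1 to Clk3. The ratio of Clk4 to Clk2 did not divide the libraries in this way. That ratio was above 1 in those 7, but also in mouse 24 of WT_A (1.026, at 6.63%) and mouse 30 of WT_F (1.047, at 17.2%).

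For each doubling of the percent within groups, the fitted change on the log2 scale was 0.47 for Clk1 to Clk2, 0.43 for Clk1 to Clk3, 0.26 for Clk4 to Clk2 and 0.22 for Clk4 to Clk3. Without mice 22 and 28 these values were 0.39, 0.27, 0.30 and 0.17. Leaving out mouse 24 as well gave 0.35, 0.27, 0.25 and 0.17.

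**Figure D4:**
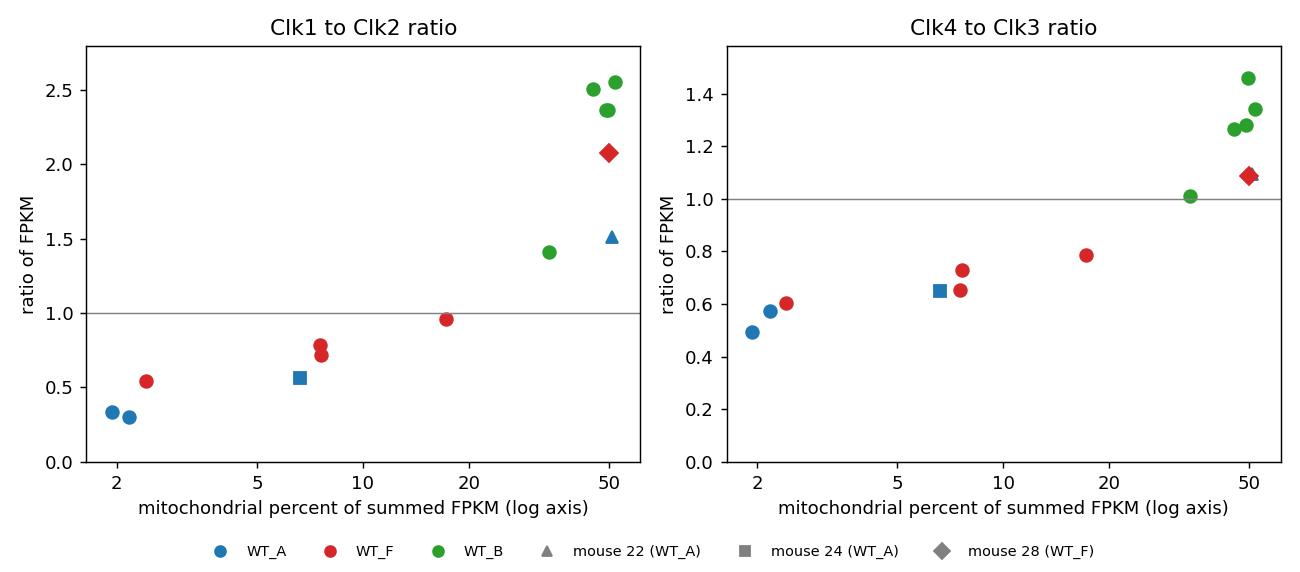
Ratio of FPKM of Clk1 to Clk2 (left) and of Clk4 to Clk3 (right) against the mitochondrial percent (log axis), 1 point per library, with a grey line at a ratio of 1. The 7 libraries at 33.8% or more, which include all of WT_B, lie above 1 in both panels and the other 7 lie below it. The ratio of Clk4 to Clk2, not drawn, was above 1 in mice 24 and 30 as well.

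At a like percent the groups could be set side by side. Mice 22 and 28, at 51.0% and 49.99%, had Clk1 at 4.28 and 5.46 FPKM, below the 7.48 to 9.33 of mice 4, 5, 7 and 8 of WT_B at 45.2% to 52.0%. Srrm1 stood at 7.27 and 8.77 FPKM in mice 22 and 28, against 10.9 to 12.3 in those WT_B mice. The genes were picked for high values in WT_B, so no test was made.

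Marker genes that moved with the percent within groups were 1 of 7 ventricular cardiomyocyte markers that rose (Pln, slope 1.26, limma adjusted p = 3.54e-06), 1 that fell (Tnni3, −0.14, limma adjusted p = 0.034), and 2 of 5 endothelial markers that fell (Cdh5, −0.15, and Tie1, −0.11). None of the tested atrial, fibroblast, macrophage, blood, smooth muscle or skeletal muscle markers passed in limma. With mice 22 and 28 left out, 1 ventricular marker rose and no other marker passed in limma. At an unadjusted p under 0.05, against 24.2% of all genes, 2 atrial markers were then positive, and 3 endothelial, 2 macrophage and 2 ventricular markers were negative. Mouse 24, whose atrial markers summed to 12913 FPKM, then had the highest percent left in WT_A (6.63%). The marker counts were not made without mouse 24, so its part in them was not tested. The endothelial list summed to 179 to 231 FPKM in WT_A, 142 to 232 in WT_F and 154 to 247 in WT_B, and the ventricular list to 11152 to 22270, 16562 to 19967 and 16864 to 20859. The part of these cells in the slopes of Clk1, Clk4 and Ogt was not tested.

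The substrates of the kinases were followed as a list of 13 SR proteins and TRA2 proteins, of which 12 could be tested. With the percent within groups 7 of the 12 rose and 0 fell, where 14.9% of all genes rose and 24.8% changed in either direction, and their median slope was 0.09, beside −0.02 over all genes. Of the 4 most abundant, Srsf6 rose (slope 0.08, limma adjusted p = 0.0322), while Srsf2 (0.07), Srsf5 (0.04) and Srsf9 (−0.03) did not pass. The largest slopes in the list, looked up after the values were seen, were those of Srsf10 (0.35, limma adjusted p = 2.8e-05), a repressor that CLK kinases control, and Srsf1 (0.29, limma adjusted p = 0.00293). Srsf10 stood at 5.96 FPKM in mouse 22 and 5.91 in mouse 28, against group means of 2.60 ± 2.28 (SD, n = 4) in WT_A, 2.93 ± 1.73 (n = 5) in WT_F and 5.79 ± 1.38 (n = 5) in WT_B. Without mice 22 and 28 none of the 12 passed in limma and 1 had an unadjusted p under 0.05, against 24.2% of all genes.

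In the list of other splicing and transcription kinases and their cyclins, 5 of 20 tested genes rose with the percent and 2 fell, beside the 24.8% of all genes that changed. Of its 4 most abundant, Dyrk1b, a kinase related to the CLK family, fell (−0.11, limma adjusted p = 0.0196), and Hipk3 (0.09), Srpk3 (−0.06) and Cdk11b (−0.01), the CDK11 partner of L-type cyclins, did not pass. Of the other RS-domain and LUC7-like genes, 5 of 17 rose and 1 fell, beside the same 24.8%. Among its most abundant members Rbm39, an SR-related splicing factor, rose (0.19, limma adjusted p = 0.00011), and Rsrp1 (0.00), Srrm2 (−0.07) and Snrpa (−0.06) did not pass. Luc7l2 (0.20) and Luc7l3 (0.27), the relatives of Luc7l, both rose, with limma adjusted p of 0.00327 and 8e-05. They were named after their values were seen. Without mice 22 and 28, none of the 20 kinases and cyclins and 1 of these 17 genes passed in limma, where 3.05% of all genes did, and 5 of the 20 had an unadjusted p under 0.05, near the 24.2% of all genes.

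Of the genes of O-GlcNAc cycling and hexosamine synthesis, 1 of 7 tested rose with the percent and 0 fell, which is near the 14.9% of all genes that rose. It was Mgea5, the O-GlcNAcase that removes what Ogt adds (0.14, limma adjusted p = 0.00821), at 9.38 FPKM in mouse 22 and 10.7 in mouse 28. Without these mice none of the 7 passed in limma and 1 had an unadjusted p under 0.05, against 24.2% of all genes. Uap1 (0.02), Hcfc1 (−0.10) and Gfpt2 (−0.04), the next in abundance, did not pass. The nuclear long noncoding RNAs Neat1 (0.08), Malat1 (0.09), Xist (0.14) and Meg3 (−0.01) did not pass in limma, and 2 of these 4 had an unadjusted p under 0.05, against 38.1% of all genes.

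Between groups, 84 genes of the 7 lists could be tested for WT_B against WT_A, and none passed in limma, where 0.322% of all genes did. At an unadjusted p under 0.05, 38 were higher in WT_B and 2 lower, against 22.5% of all genes in either direction. The count at the adjusted threshold depended on mouse 22. Without it 41 were higher and 8 lower at an unadjusted p under 0.05, and 36 of the 84 were higher and 3 lower at the adjusted threshold in limma, among them 9 of 12 SR and TRA2 genes and 11 of 17 RS-domain and LUC7-like genes, where 11.6% of all genes were higher. For WT_B against WT_F, 5 of 85 were higher and 1 lower, where 1.61% of all genes were called. The 5 were Srsf11, Prpf4b, Ccnl1, Rbm25 and Pnn, and the 1 was Xist, the transcript of the inactive X chromosome, at 1.23 to 4.97 FPKM in the females and at most 0.0122 in WT_B. Ccnl1, the sister of Ccnl2, was higher by 0.74 ± 0.12 on the log2 scale (limma adjusted p = 0.0263), and without mouse 28 the count was 29 higher and 3 lower, where 11.4% of all genes were higher. For WT_F against WT_A none of 82 passed in limma, where 0.024% of all genes did, and 7 were higher and 1 lower at an unadjusted p under 0.05, against 3.85% of all genes. These counts were 18 and 2 without mice 22 and 28, against 6.89% of all genes. The lists were chosen with earlier results of these data known, so the counts between groups are a description.

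The genes most like the 10 were ranked by Pearson r, over 14 libraries, between their deviations from the group means and the mean deviation of the 10. Of 10586 genes the closest were Gm10557 (r = 0.870), Neat1 (0.861), a noncoding RNA that builds paraspeckles, Pabpn1 (0.851), the nuclear poly(A)-binding protein, Phyhd1 (0.844) and Snrnp70 (0.830), a U1 snRNP protein. Tmem181b-ps (0.824), Fxyd6 (0.814), 2700097O09Rik (0.810), B2m (0.798) and Gtf3c2 (0.793) followed. These points share depth and the scale of each library, so r is a description. Among the 10 genes themselves r within groups was 0.896 for Clk1 and Ogt, 0.852 for Clk1 and Clk4, 0.867 for Ccnl2 and Leng8 and 0.805 for Clk2 and Leng8, but −0.590 for Clk1 and Clk3 and −0.378 for Clk1 and Clk2.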

How the data were processed

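Heart RNA was prepared with RNeasy kits from 14 WT mice, 1 library per mouse, and poly(A) RNA was sequenced. The values the authors deposited are FPKM, derived from featureCounts fragment counts, and the submitters' processing notes name GRCm39 and DESeq2. The 56748 Ensembl identifiers were named with GENCODE M21 (52073 matched), which belongs to GRCm38, so no gene coordinates of that annotation are given. Fragments were recovered from the FPKM steps, with 90.2% to 92.0% of values of 1 to 30 fragments whole within 0.02, where 4% would be by chance. A gene entered a fit when 4 or more of its libraries reached 0.5 FPKM, and was tested on log2(FPKM + 1) with limma 3.58.1 in R 4.3.3 (intensity trend, two-sided, Benjamini-Hochberg over all genes, threshold 0.05). Scripts were tested on simulated data. Other values were made with Python 3.11.15, pandas 2.3.3 and scipy 1.17.1. The mitochondrial percent is one of summed FPKM and not of fragments. Summed FPKM outside the mitochondrial genome was 236048 in mouse 22 and 224092 to 278287 in the other WT_A mice. FPKM is scaled by depth, so a larger share of mitochondrial fragments lowers the FPKM of other genes. Rescaling to genes outside the mitochondrial genome addresses this. Other alternatives were pseudocounts of 0.1 and 5, no filter or 2 FPKM, median-of-ratios scaling, array weights, another form of the percent, 1 fit of all libraries, mice left out in turn, and the set without mice 22, 24 and 28. The setting without mice 22 and 28 was chosen after seeing the data. The 10 genes and the gene lists were chosen with earlier results of these data known. Named beside the 10 were the 4 most abundant genes of each list, the genes of a list called in the test of the percent where 5 or fewer were, and the 10 genes most like the 10. Others were named after their values were seen.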

Additional observations from a re-analysis of the deposited data

Results flagged for a closer look

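Clk1 in mouse 22 of WT_A, at 4.28 FPKM, stood far above the other 3 mice of its group, which lay between 0.930 and 1.37 FPKM, a gap of 0.870 of the group's range. In the same library the percent of summed FPKM in mitochondrially encoded genes was 51.0%, against 1.93% to 6.63% in the other 3, a gap of 0.904 of the range. These were 2 of 33 groups of values examined, and chance alone marks about 1 group in 20.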

How the results depend on the processing

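Genes called for WT_B against WT_A numbered 41 (33 higher), and this became 0 with no filter, 26 (19 higher) with a filter of 2 FPKM, 102 (94 higher) with scaling to genes outside the mitochondrial genome, 4811 (2391 higher) with array weights, 401 (200 higher) with all 14 libraries in 1 fit, 4206 (2130 higher) without mice 22, 24 and 28, and 2392 (1463 higher) without mice 22 and 28. For WT_F against WT_A the 3 genes called became 6 with a pseudocount of 0.1, 1 with no filter, 9 with array weights or with all libraries in 1 fit, 1 without the 3 mice and 0 without mice 22 and 28. For WT_B against WT_F the 208 (86 higher) became 20 with no filter (15 higher), 4233 with array weights (1985 higher), 35 with 1 fit (23 higher) and 2645 without mouse 28 (1457 higher), which also was the count without mice 22 and 28 and without the 3 mice. The 3269 genes with a slope on the mitochondrial percent (1965 positive) became 6616 with array weights (2907 positive), 100 without the 3 mice (98 positive) and 397 without mice 22 and 28 (356 positive). With each mouse left out in turn, these 4 counts ran from 0 to 2392, from 0 to 4, from 17 to 2645 and from 1698 to 4692.

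Of the 10 genes, 3 had a slope that passed. This became 5 with median-of-ratios scaling or scaling outside the mitochondrial genome, 6 with array weights, 0 without mice 22 and 28 and 0 without mice 22, 24 and 28, and 3 to 4 with each mouse left out. Clk1, Clk4 and Ogt lost the call in those last 2 sets of libraries alone. Clk2 passed with array weights (−0.07, limma adjusted p = 0.0149) and without mouse 24 (limma adjusted p = 0.0471). The slope of Ccnl2 changed sign from 0.018 to −0.035 without mice 22, 24 and 28 and −0.093 without mice 22 and 28, and ran from −0.058 (without mouse 22) to 0.032 with each mouse left out. The median difference of the 10 genes for WT_B minus WT_A, 0.91, became 0.48 with a pseudocount of 5 and ran from 0.84 to 1.02 with each mouse left out. The causes of these shifts were not tested beyond the libraries and genes each setting removes. No paired analysis was possible because the groups share no mouse numbers.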

Other observations

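Nuclear RNA decay and mRNA export, which act on transcripts held in the nucleus, were followed as lists of their own. Of 9 tested genes of nuclear RNA decay, 3 rose with the mitochondrial percent within groups and 1 fell, where 14.9% of all genes rose and 24.8% changed in either direction, with a median slope of 0.07 beside −0.02 over all genes. Zfc3h1, a subunit of the exosome-targeting connection for polyadenylated RNA, rose (slope 0.16, limma adjusted p = 0.000268), as did Xrn2, the nuclear 5′ to 3′ exonuclease (0.12, limma adjusted p = 0.00915), and Papolg, a poly(A) polymerase (0.11, limma adjusted p = 0.0177). Exosc10, the nuclear exosome ribonuclease, fell (−0.09, limma adjusted p = 0.00906), and Mtrex (0.08) and Pabpn1 (0.05) did not pass. Without mice 22 and 28, 1 of the 9 passed, against 3.05% of all genes.

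Of 16 tested genes of the exon junction complex and mRNA export, 3 rose and 3 fell, against 24.8% of all genes in either direction, with a median slope of −0.04. Among the 4 most abundant, Ddx39b, the helicase that loads export factors, fell (−0.11, limma adjusted p = 0.00729), and Eif4a3 (−0.07), Magoh (0.07) and Nxf1 (0.00) did not pass. Without mice 22 and 28 none of the 16 passed in limma and 3 had an unadjusted p under 0.05, against 24.2% of all genes.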
